A study of Mus musculus with 6 samples.

Results

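The insulin-like growth factor (IGF) binding proteins are the secreted proteins that carry IGF1 and IGF2 in blood and tissue and hold them away from, or deliver them to, the IGF1 receptor. The genes described here are the binding protein genes Igfbp1 to Igfbp7 and Igf2r, which encodes the receptor that takes up IGF2 and mannose 6-phosphate-tagged enzymes for breakdown in lysosomes. These 8 genes were found by symbol in the deposited count table, which has 18260 genes in all, and all 8 passed the filter on low counts. They were divided by the liver cells known to make them: Igfbp1, Igfbp2 and Igfbp4 as hepatocyte binding proteins, and Igfbp3, Igfbp5, Igfbp6 and Igfbp7 as stromal ones, made mainly by endothelial cells, macrophages, stellate cells, fibroblasts or mesothelium.

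Expression was measured by RNA sequencing in primary hepatocytes isolated from liver tumours that a carcinogen and a promoter had induced in male mice. The 3 Ripply1 ΔHep libraries came from mice with loxP sites around exons 1 to 3 of Ripply1, a transcriptional co-repressor gene, and the transgene Alb-Cre, whose recombinase is driven by the albumin promoter and so acts in hepatocytes. The 3 Ripply1 F/F libraries came from mice with the same loxP-flanked alleles, labelled as floxed and not as knockout. All mice of both groups had received, when 6 weeks old, 1 injection of the carcinogen diethylnitrosamine (DEN) at 90 μg per g. After 3 weeks without treatment they ate food containing 0.05% phenobarbital (PB), which promotes tumours, for 27 weeks, and cells were taken 30 weeks after DEN. The labels do not say whether the replicates of a group are separate animals, so p-values measure the spread between these libraries, which may be partly technical.

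In liver, IGF1 and the acid-labile subunit (Igfals) come from hepatocytes, and with IGFBP3, which comes largely from non-parenchymal cells, they form the long-lived ternary complex of plasma. IGFBP1 is the fast-changing member: its hepatic transcription is shut off by insulin and driven by FoxO factors in fasting, while IGFBP2 changes more slowly with nutrition. IGFBP7 differs from the other 6 in that it lacks their carboxy-terminal domain and binds IGFs weakly, and it is laid down in the matrix around vessels.

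Promoter sequences are shown for 3 members on which the results turn: Igfbp7, the member that passed the test; Igfbp1, the member with the widest spread between ΔHep libraries; and Igfbp4, the most abundant member, whose level was nearly the same in all libraries. Each runs 5′ to 3′ on the gene's strand from 250 bases before to 50 bases after the gene start (RefSeq, build GRCm38.p6). Capitals mark matches, on either strand, to CAAAACA or CAAAATA (the repeats of the insulin response element), GTAAACA (a forkhead motif), TATAAA (the TATA box) or GGGCGG (the GC box).
Igfbp7, chr5:77407996-77408295, minus strand: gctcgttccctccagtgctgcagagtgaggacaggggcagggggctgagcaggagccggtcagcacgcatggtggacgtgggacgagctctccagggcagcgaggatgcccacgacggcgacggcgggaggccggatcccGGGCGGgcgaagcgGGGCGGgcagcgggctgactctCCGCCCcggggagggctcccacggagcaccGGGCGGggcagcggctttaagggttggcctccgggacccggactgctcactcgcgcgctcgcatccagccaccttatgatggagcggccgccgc
Igfbp1, chr11:7197537-7197836, plus strand: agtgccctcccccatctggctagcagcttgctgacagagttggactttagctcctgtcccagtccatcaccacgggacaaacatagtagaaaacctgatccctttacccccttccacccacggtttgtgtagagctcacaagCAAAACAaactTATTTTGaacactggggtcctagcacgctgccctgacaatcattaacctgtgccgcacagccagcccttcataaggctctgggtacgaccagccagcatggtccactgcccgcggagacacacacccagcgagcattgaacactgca
Igfbp4, chr11:99040994-99041293, plus strand: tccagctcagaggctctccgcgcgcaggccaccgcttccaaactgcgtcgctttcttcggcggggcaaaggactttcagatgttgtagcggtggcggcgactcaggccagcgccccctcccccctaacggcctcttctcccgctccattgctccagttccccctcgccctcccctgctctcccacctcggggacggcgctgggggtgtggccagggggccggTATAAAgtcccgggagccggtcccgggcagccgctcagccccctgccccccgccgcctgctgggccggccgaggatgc
The Igfbp1 sequence holds CAAAACA, from base -108, and the reverse complement of CAAAATA, from base -97, counted from the gene start. Of 32851 promoters of this length, 6.28% hold CAAAACA, 4.36% hold CAAAATA and 0.472% hold both, and none of the other 7 members has either in its 8 promoter entries. GTAAACA, found in 3.65% of all promoters, has no match in any member. The Igfbp7 sequence holds GGGCGG at 4 places, as 35.7% of promoters do at least once, and 33 CpG dinucleotides, against 8 in Igfbp1, 27 in Igfbp4 and a median of 7 over all promoters. Igfbp4 has TATAAA from base -28, a motif that 13.6% of promoters hold. A match is a string of letters and was not tested for binding.

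Library totals ran from 31484308 to 35894395 counts in ΔHep and from 27772849 to 32199523 in F/F. Levels are in CPM, the usual depth-scaled read count, here on TMM-adjusted library sizes, and 1 CPM stood for 26.67 to 37.87 counts. Ripply1 had 1, 1 and 2 counts in ΔHep replicates 1, 2 and 3 and 13, 8 and 12 in F/F replicates 1, 2 and 3, and the groups did not overlap (exact two-sided permutation p = 0.1, the smallest that 3 against 3 libraries can give); these counts also cover the exon outside the loxP sites. The 10 hepatocyte markers summed to between 120100 and 144100 CPM in ΔHep and between 126900 and 135300 CPM in F/F, with 0 of 10 past the threshold in edgeR (0 at an unadjusted p below 0.05), so the libraries bear the markers of the labelled cell type. Markers of other liver cells were also present and higher in ΔHep, as given below beside the stromal members. F/F replicate 3 stood apart from the other F/F libraries in those markers and in several members, so results that turn on it are given without it too.

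Of the 8 members, 1 passed the test, Igfbp7, which was 2.22-fold higher in ΔHep. The test was edgeR's quasi-likelihood test over 14552 genes with Benjamini-Hochberg adjusted p below 0.05, which called 1.68% of all genes, 1.51% as higher and 0.165% as lower. At an unadjusted p below 0.05 there were 4 members, Igfbp1, Igfbp3 and Igfbp7 higher and Igfbp5 lower, where 21.1% of all genes reached that level, 14.1% higher and 6.97% lower. The median log2 fold change was 0.47 over the 3 hepatocyte binding proteins and 0.38 over the 4 stromal ones, and -0.01 over all genes tested. These medians hide opposite values: the hepatocyte members ran from 0.00 to 1.59 and the stromal ones from -0.74 to 1.15.

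**Figure D1:**
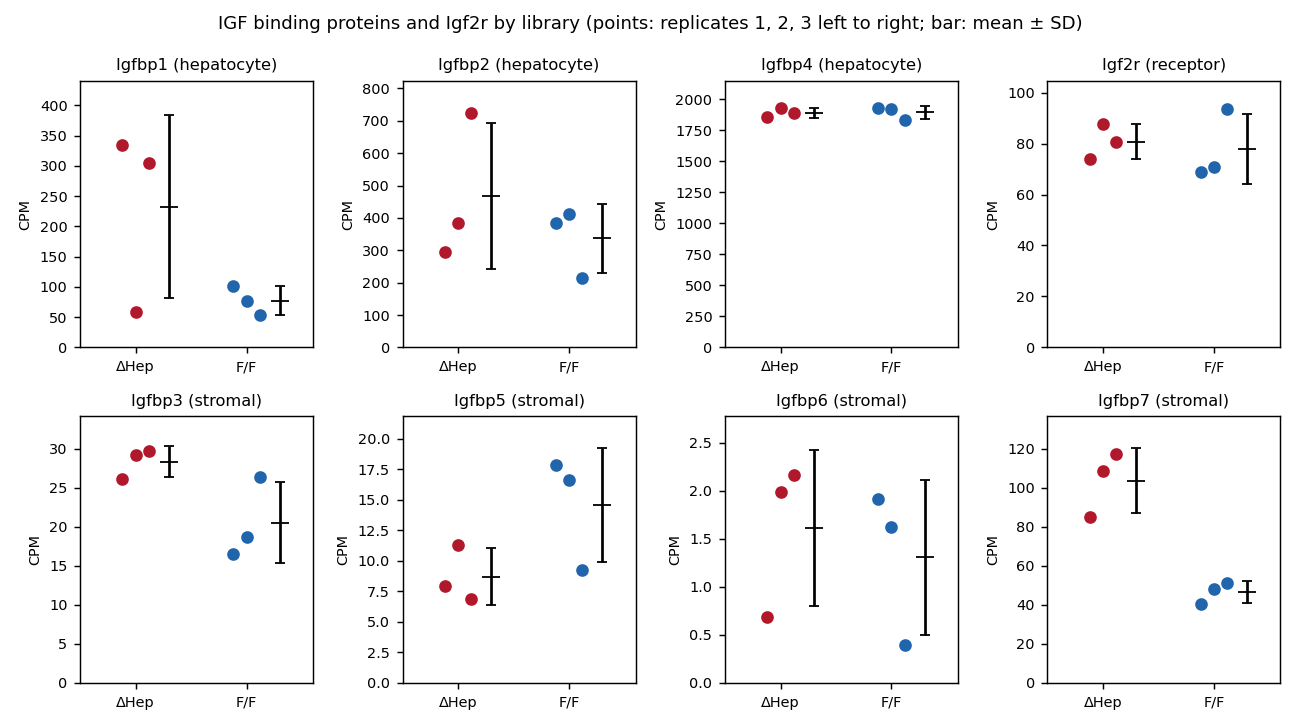
Level in CPM (vertical axes, from 0) of each member in the 3 ΔHep libraries (red, left) and the 3 F/F libraries (blue, right), with the mean and SD beside the points. Igfbp7 is the panel in which all ΔHep points lie above all F/F points, and in the Igfbp1 panel ΔHep replicate 2 sits among the F/F points while the other ΔHep points are far above them.

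Igfbp4, a binding protein that mostly holds IGFs back from their receptor, had the most CPM of the binding proteins in these libraries. It had 1853, 1933 and 1891 CPM in ΔHep replicates 1, 2 and 3, against 1928, 1920 and 1836 CPM in F/F replicates 1, 2 and 3. The libraries interleave and the SD was 2.13% of the mean in ΔHep and 2.68% in F/F, less than for all but 2.93% and 3.91% of 12493 genes with a mean of at least 1 CPM. The log2 fold change was -0.002 (SE 0.12, adjusted p = 0.994), and its sign turned with the scaling and with the libraries kept, so it has no direction. Igfbp4 ranked 58 of 18260 genes by mean CPM and made up 71.2%, 76.5% and 61.5% of the summed CPM of the 7 binding proteins in the ΔHep libraries and 77.5%, 77.0% and 83.7% in the F/F libraries. Those shares move with the other members, since Igfbp4 itself hardly varied. They are not scaled for length and are raised by it, as Igfbp4 has 4416 bases of exon against 1847 in Igfbp2 and 1525 in Igfbp1. In CPM per kb of exon, ΔHep replicate 3 had 428 for Igfbp4 and 391 for Igfbp2.

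Igfbp2, the binding protein that predominates in fetal liver and carries an integrin-binding motif, varied between libraries of the same genotype. It had 295, 384 and 723 CPM in ΔHep replicates 1, 2 and 3, against 383, 412 and 216 CPM in F/F replicates 1, 2 and 3. The groups overlap, with ΔHep replicate 3 above all others and F/F replicate 3 below all others. The log2 fold change was 0.47 (SE 0.35, adjusted p = 0.472), and it was 0.01 without ΔHep replicate 3 and 0.22 without F/F replicate 3, so these libraries made up most of it.

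Igfbp1, the insulin-regulated member, had the largest fold change of the 8 and did not pass the test. It had 334, 58.7 and 305 CPM in ΔHep replicates 1, 2 and 3, against 101, 76.7 and 53.6 CPM in F/F replicates 1, 2 and 3. ΔHep replicates 1 and 3 lay far above every F/F library, and ΔHep replicate 2 lay within the F/F range. The mean was 232 ± 151 CPM in ΔHep and 77.2 ± 23.8 CPM in F/F (SD, n = 3 each), which is 1.59 on the log2 scale (SE 0.55, adjusted p = 0.155). The SD in ΔHep was 65.0% of the mean, more than for 98.3% of the 12493 genes compared. Without ΔHep replicate 2 the log2 fold change was 2.05 (SE 0.24), and the adjusted p was 0.0624, which does not pass either. It was 1.23 (adjusted p = 0.27) without ΔHep replicate 1 and 1.35 (adjusted p = 0.351) without ΔHep replicate 3, and ran from 1.23 to 2.05 over all 12 other settings, none of which passed.

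The other insulin- and FoxO-responsive hepatocyte genes of a fixed list were set beside Igfbp1. Of 12 tested, 0 passed in edgeR; 3 were higher and 1 lower at an unadjusted p below 0.05, the median log2 fold change was 0.07, and the values ran from -1.52 to 2.55. ΔHep replicate 2, the low library for Igfbp1, was the lowest ΔHep library for 8 of these 12 genes, where it was the lowest for 31.7% of 12493 genes. G6pc, the glucose-6-phosphatase subunit that releases glucose from hepatocytes, had 690, 183 and 471 CPM in ΔHep replicates 1, 2 and 3 and 487, 761 and 565 CPM in F/F replicates 1, 2 and 3. Pdk4, a fasting-induced kinase that blocks pyruvate oxidation, had 55.8, 6.95 and 15.1 CPM in ΔHep replicates 1, 2 and 3 and 3.97, 3.49 and 5.84 CPM in F/F replicates 1, 2 and 3. Pdk4 thus did not overlap between the groups, while G6pc did, and the lowest G6pc value of all 6 libraries was that of ΔHep replicate 2. Irs2, the insulin receptor substrate that insulin represses, had 23.2, 7.19 and 17.0 CPM in ΔHep replicates 1, 2 and 3, in the same order as Igfbp1, and 13.2, 15.1 and 6.78 CPM in F/F replicates 1, 2 and 3.

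The spread was narrower or the order another for other genes of the list. Pck1, the first enzyme of gluconeogenesis, was also lowest among ΔHep libraries in replicate 2, at 4263 CPM, and averaged 4827 ± 612 CPM in ΔHep and 4260 ± 588 CPM in F/F (SD, n = 3 each; log2 fold change 0.18, adjusted p = 0.581). Angptl8, a hormone gene that feeding and insulin induce, was highest among ΔHep libraries in replicate 2, at 10.7 CPM. It averaged 8.35 ± 2.08 CPM in ΔHep and 24.0 ± 10.5 CPM in F/F (SD, n = 3 each), with no overlap (log2 fold change -1.52, SE 0.33, adjusted p = 0.0607). G6pc and Pck1 were named by level, and Pdk4, Irs2 and Angptl8 after their values were seen. Nutritional state at sampling is not given in the labels, and its part in Igfbp1 was not tested.

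**Figure D2:**
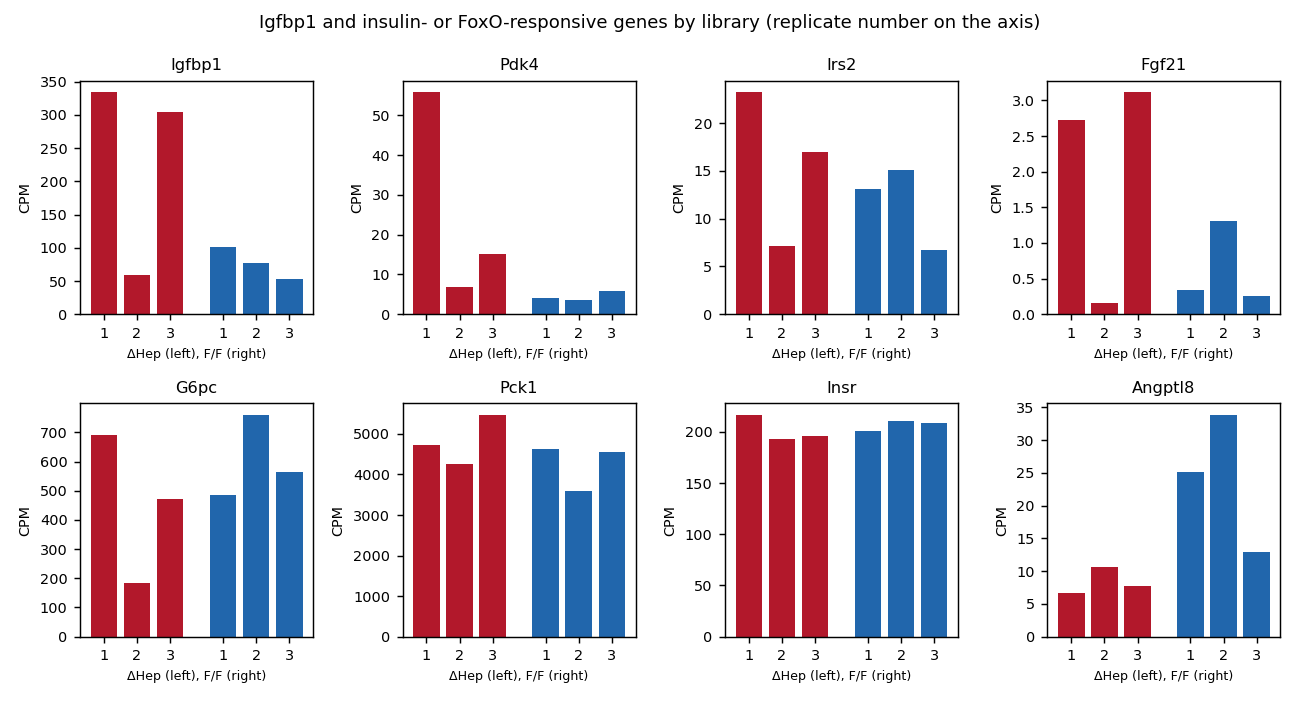
Level in CPM (bars from 0) of Igfbp1 and 7 genes of the insulin- and FoxO-responsive list, chosen after their values were seen, in ΔHep replicates 1 to 3 (red, left) and F/F replicates 1 to 3 (blue, right). All but Angptl8 are lower in ΔHep replicate 2 than in the other ΔHep libraries, by little for Pck1 and Insr, and Angptl8 is higher there than in the other ΔHep libraries.

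Igfbp7, which encodes a matrix-bound protein of vessel walls and activated stellate cells, rose in ΔHep. It had 85.3, 109 and 117 CPM in ΔHep replicates 1, 2 and 3, against 40.2, 48.3 and 51.4 CPM in F/F replicates 1, 2 and 3. Every ΔHep library lay above every F/F library, as they did, in this direction, for 15.3% of all genes tested. The mean was 104 ± 16.5 CPM in ΔHep and 46.7 ± 5.80 CPM in F/F (SD, n = 3 each), which is 1.15 on the log2 scale (SE 0.15, adjusted p = 0.0329). Among the 244 genes called, 12 had a higher mean CPM than Igfbp7, and among the 220 called higher, 174 had a larger fold change. The size was steady, between 1.05 and 1.27 over 12 other settings, but the call was not: without ΔHep replicate 2 or 3 the adjusted p was 0.0661 or 0.0924, and leaving out F/F replicate 1 gave 0.145, F/F replicate 2 0.154. Its annotated 3′ end shares 85 bases with Polr2b, on the other strand, and the strand setting of the counts is not given; Polr2b stood at 64.0 and 73.0 CPM in ΔHep and F/F (log2 fold change -0.19, SE 0.14, adjusted p = 0.48).

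Igfbp3, the main carrier of IGF1 in plasma, was higher in ΔHep in the mean and did not pass. It had 26.1, 29.2 and 29.7 CPM in ΔHep replicates 1, 2 and 3, against 16.5, 18.7 and 26.5 CPM in F/F replicates 1, 2 and 3. F/F replicate 3 reached the ΔHep range, and the other F/F libraries lay below it. The log2 fold change was 0.46 (SE 0.18, adjusted p = 0.189). Without F/F replicate 3 it was 0.68 (SE 0.12, adjusted p = 0.022), which passes, where that fit called 8.28% of all genes. Of the 12 other settings, this was the 1 that passed in Igfbp3. In edgeR the value was 0.34 (adjusted p = 0.462) without F/F replicate 1 and 0.4 (adjusted p = 0.42) without F/F replicate 2. F/F replicate 3 was singled out partly by its values for the members.

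Igfbp5, the most conserved binding protein, which is bound to matrix and made by smooth muscle cells and fibroblasts, was lower in ΔHep in the mean and did not pass. It had 7.94, 11.3 and 6.84 CPM in ΔHep replicates 1, 2 and 3, against 17.8, 16.6 and 9.25 CPM in F/F replicates 1, 2 and 3. F/F replicate 3 again lay with the ΔHep libraries, and the groups overlap through it. The log2 fold change was -0.74 (SE 0.28, adjusted p = 0.182), and -1.0 (SE 0.22, adjusted p = 0.0351) without F/F replicate 3. It was negative in all 12 other settings, from -1.0 to -0.57. It passed in 1 of them, the fit without F/F replicate 3, which called 8.28% of all genes.

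Igfbp6, a binding protein with a preference for IGF2, had the fewest counts of the members. It had 23, 65 and 82 counts in ΔHep replicates 1, 2 and 3, against 51, 52 and 11 counts in F/F replicates 1, 2 and 3. The mean was 1.61 ± 0.811 CPM in ΔHep and 1.31 ± 0.805 CPM in F/F (SD, n = 3 each), so the spread within each genotype was larger than the difference (log2 fold change 0.30, SE 0.61, adjusted p = 0.818; -0.14 without F/F replicate 3).

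Markers of the cells that make the stromal members were higher in the same libraries, and in bulk RNA more cells of a type and more RNA per cell cannot be told apart. Of all genes tested, edgeR called 1.51% higher, and 14.1% were higher at an unadjusted p below 0.05. Of 15 stellate cell and fibroblast markers 7 rose, all 15 were positive and the median was 1.07; their sum ran from 768 to 1049 CPM in ΔHep and from 379 to 572 CPM in F/F, with none at 0 in any library. Of 15 endothelial markers 1 rose, 15 were positive and the median was 0.62; their sum ran from 882 to 1044 CPM in ΔHep and from 487 to 832 CPM in F/F, with none at 0. Of 13 macrophage markers 2 rose, 13 were positive and the median was 0.87, and their sums overlapped, from 671 to 894 CPM in ΔHep and from 283 to 728 CPM in F/F, the top of the F/F range being replicate 3. Dcn, the proteoglycan decorin of fibroblasts, was the most abundant stellate marker, at 237 ± 28.3 CPM in ΔHep and 143 ± 15.5 CPM in F/F (SD, n = 3 each; adjusted p = 0.0431). Ptprb, a phosphatase of endothelial cells, led the endothelial list at 205 and 135 CPM in ΔHep and F/F (adjusted p = 0.222). Mesothelial and portal fibroblast markers had 0 of 9 past the threshold (6 higher and 0 lower at an unadjusted p below 0.05), a median of 1.28 and sums of 27.99 to 45.1 CPM in ΔHep and 18.7 to 20.4 CPM in F/F. Cholangiocyte markers had 5 of 9 that rose (sums of 90.0 to 167 CPM in ΔHep and 51.0 to 108 CPM in F/F), with Cftr at 0 in F/F replicate 2. Lymphocyte markers had 0 of 10 past the threshold (7 higher at an unadjusted p below 0.05), and sums of 22.8 to 46.6 CPM in ΔHep and 9.60 to 15.3 CPM in F/F. The median log2 fold change was 1.84 for cholangiocyte and 1.76 for lymphocyte markers. Both lie above the medians of the cells named as makers of the stromal members, so the rise was not particular to those cells.

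Set against these sums within each library, the stromal members parted. The log2 ratio of Igfbp7 to summed stellate and fibroblast markers was -3.17, -3.27 and -3.13 in ΔHep replicates 1, 2 and 3, against -3.24, -3.15 and -3.48 in F/F replicates 1, 2 and 3. These overlap, and the sum was 2.06-fold higher in ΔHep in the mean. The ratio of Igfbp7 overlapped for other lists too: it differed by 0.17 on the log2 scale against mesothelial and portal fibroblast markers, whose sum was 2.01-fold higher, and by 0.24 against macrophage markers, whose sum was 1.72-fold higher. Against endothelial markers, whose sum was 1.53-fold higher, the log2 ratio of Igfbp7 was -3.24 ± 0.27 in ΔHep and -3.74 ± 0.24 in F/F (SD, n = 3 each) and did not overlap. For Igfbp3 the order was the other way: its log2 ratio to endothelial markers overlapped, at -5.10 ± 0.17 in ΔHep and -4.95 ± 0.06 in F/F, and its ratio to stellate markers did not, at -5.05 ± 0.15 in ΔHep and -4.49 ± 0.05 in F/F (SD, n = 3 each). Igfbp5 was lower relative to stellate markers in every ΔHep library, at -6.60, -6.53 and -7.22, against -4.41, -4.69 and -5.95 in F/F replicates 1, 2 and 3. These ratios were chosen after the values were seen and carry no test; the part of these cells in the members' values was not tested.

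**Figure D3:**
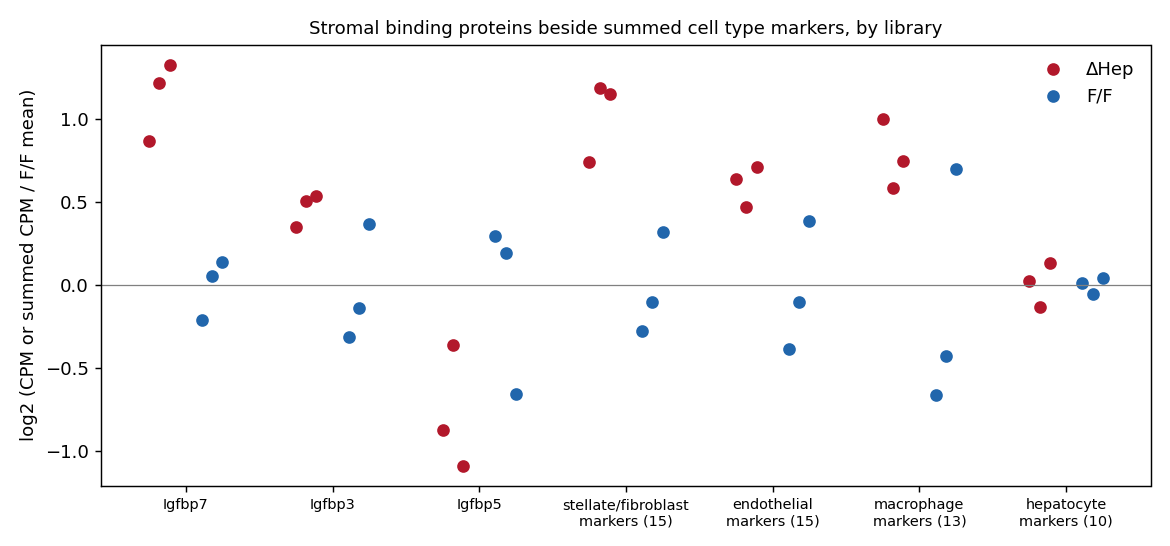
Log2 of the level divided by the F/F mean (vertical axis) for Igfbp7, Igfbp3, Igfbp5 and the summed CPM of 4 marker lists, with the number of genes in brackets, in the 3 ΔHep libraries (red, left) and 3 F/F libraries (blue, right). The ΔHep points of Igfbp7 and of the stellate and fibroblast and the endothelial sums lie above their F/F points, Igfbp5 lies below the F/F mean in all ΔHep libraries, and hepatocyte markers stay near 0.

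Igf2r, the receptor that clears IGF2, had 73.9, 87.6 and 80.6 CPM in ΔHep replicates 1, 2 and 3, against 68.9, 70.8 and 93.5 CPM in F/F replicates 1, 2 and 3. The groups overlap over nearly their whole range, and the log2 fold change was 0.05 (SE 0.14, adjusted p = 0.862), with a sign that turned without some libraries. Airn, the imprinted antisense RNA that overlaps it, had between 2 and 10 counts in ΔHep and between 3 and 7 counts in F/F, against at least 2493 and 1838 counts of Igf2r; how many reads of Airn were counted as Igf2r was not tested. Of 10 genes of the mannose 6-phosphate pathway, which tags enzymes for this receptor and sorts them, 0 passed in edgeR and 0 reached an unadjusted p below 0.05, with a median log2 fold change of -0.08. M6pr, the smaller receptor of the same tag, stood at 103 ± 4.69 CPM in ΔHep and 109 ± 7.25 CPM in F/F (SD, n = 3 each; adjusted p = 0.71), and Vps35, a sorting subunit that returns these receptors to the Golgi, at 119 ± 0.905 and 115 ± 19.8 CPM (adjusted p = 0.886).

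The members differed widely in level once length was taken into account. In CPM per kb of exon, Igfbp4 led with 429 ± 9.13 in ΔHep and 429 ± 11.5 in F/F (SD, n = 3 each), and its libraries did not overlap those of Igfbp2, the next member. On the length of the longest transcript in place of all exons, Igfbp2 reached 553 in ΔHep replicate 3, above all 3 ΔHep values of Igfbp4 (484 to 505), so the separation in ΔHep depends on the length used. Igfbp2 followed, with 253 ± 122 in ΔHep and 182 ± 57.4 in F/F, then Igfbp1 with 152 ± 99.2 in ΔHep and 50.6 ± 15.6 in F/F, and Igfbp7 with 85.7 ± 13.6 in ΔHep and 38.6 ± 4.80 in F/F. In ΔHep neither Igfbp2 and Igfbp1 nor Igfbp1 and Igfbp7 separated, while in F/F Igfbp2 lay above Igfbp1 in every library and Igfbp1 overlapped Igfbp7. Far below came Igf2r at 8.67 ± 0.739 in ΔHep and 8.35 ± 1.47 in F/F and Igfbp3 at 9.06 ± 0.624 in ΔHep and 6.57 ± 1.67 in F/F, which overlapped each other in both groups. On the longest transcript, ΔHep libraries separated Igfbp2 from Igfbp1 and Igfbp3 from Igf2r. Igfbp5, at 1.45 ± 0.389 in ΔHep and 2.43 ± 0.774 in F/F, and Igfbp6, at 1.45 ± 0.729 in ΔHep and 1.18 ± 0.724 in F/F, were lowest and overlapped too. As a sum of CPM, the 3 hepatocyte members made 2592 ± 287 in ΔHep and 2309 ± 176 in F/F, and the 4 stromal members 142 ± 19.5 in ΔHep and 83.1 ± 5.83 in F/F (SD, n = 3 each). The stromal share of all binding protein CPM was 4.61%, 5.98% and 5.07% in ΔHep replicates 1, 2 and 3, against 3.07%, 3.42% and 3.99% in F/F replicates 1, 2 and 3, a difference that is mostly Igfbp7. These sums and shares are not scaled for length. Igfbp7 has 1209 bases of exon and Igfbp4 4416, so the stromal share per kb would be larger in both groups.

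**Figure D4:**
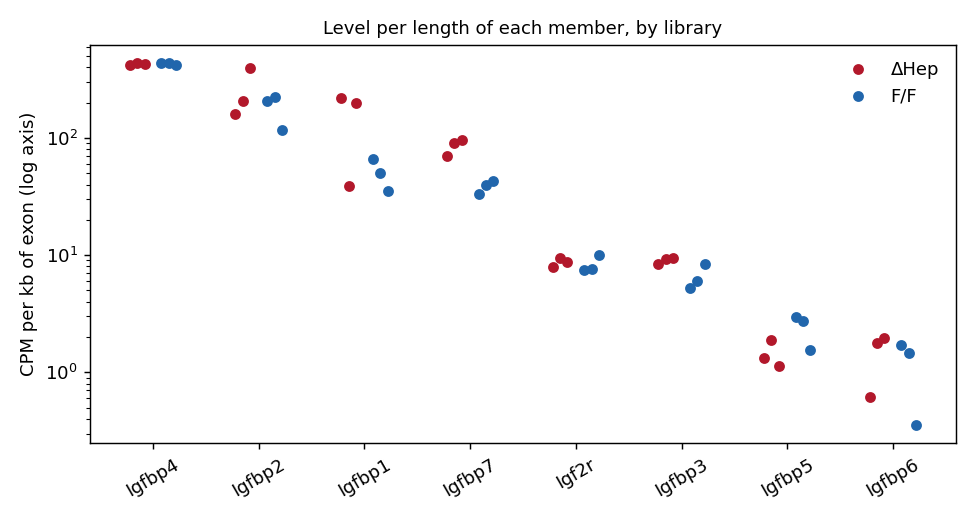
CPM per kb of exon (log axis) of the 8 members, ordered by their F/F mean, with a point for each ΔHep library (red, left) and each F/F library (blue, right). Igfbp4 stands highest with its 6 points almost level, and Igfbp5 and Igfbp6 lie lowest, near 1 CPM per kb.

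Whether stromal and hepatocyte members differed in their change was tested on ratios within a library, for the 12 pairs of 1 stromal and 1 hepatocyte member. The log2 ratio of Igfbp7 to Igfbp4 was -4.44, -4.15 and -4.01 in ΔHep replicates 1, 2 and 3, against -5.58, -5.31 and -5.16 in F/F replicates 1, 2 and 3, a difference of 1.15. The log2 ratio of Igfbp5 to Igfbp2 was -5.20, -5.08 and -6.71 in ΔHep replicates 1, 2 and 3, against -4.42, -4.63 and -4.53 in F/F replicates 1, 2 and 3, a difference of -1.14. These 2 pairs were the ones that did not overlap between genotypes, and each had an exact two-sided permutation p = 0.1, the smallest possible with 3 against 3 libraries, and an adjusted p of 0.48 over the 12 pairs, so this test could not pass the threshold at this number of libraries. Within the stromal set, the log2 ratio of Igfbp7 to Igfbp5 was 3.41, 3.25 and 4.08 in ΔHep replicates 1, 2 and 3, against 1.17, 1.54 and 2.47 in F/F replicates 1, 2 and 3, also without overlap (exact two-sided permutation p = 0.1, chosen after the values were seen).

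Igfbp1 lies beside Igfbp3, and Igfbp2 beside Igfbp5. Igfbp1 (chromosome 11, 7197782 to 7202546, plus strand) and Igfbp3 (7206086 to 7213923, minus strand) lie tail to tail with 3539 bases between them, and their log2 fold changes were 1.59 and 0.46. Igfbp2 (chromosome 1, 72824503 to 72852474, plus strand) and Igfbp5 (72857932 to 72874884, minus strand) lie in the same way with 5457 bases between them, and their log2 fold changes were 0.47 and -0.74. The others lie apart: Igfbp4 on chromosome 11 (99041244 to 99054392, plus strand), Igfbp7 on chromosome 5 (77349240 to 77408041, minus strand), Igfbp6 on chromosome 15 (102144362 to 102149511, plus strand) and Igf2r on chromosome 17 (12682406 to 12769664, minus strand), in build mm10. No difference between neighbours was tested.

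Of all genes tested, 1.68% passed, 1.51% as higher. Around the binding proteins, 62 tested genes of the IGF system in 7 lists held 1 that passed, near that share, and it was higher. That gene was Htra3, a secreted serine protease with an IGFBP-like domain, at 11.3 ± 2.85 CPM in ΔHep and 2.83 ± 0.322 CPM in F/F (SD, n = 3 each; log2 fold change 2.0, SE 0.23, adjusted p = 0.0329), and its call was lost without ΔHep replicate 2, F/F replicate 1 or F/F replicate 2. It belongs to the list of proteases and inhibitors that act on binding proteins, in which 9 of 10 tested members were higher without overlap between the groups, where 15.3% of all genes were, and the median log2 fold change was 1.54. Pappa, the metalloprotease that cuts IGFBP4 and so frees IGF, was at 0.936 ± 0.291 CPM in ΔHep and 0.298 ± 0.147 CPM in F/F (SD, n = 3 each; log2 fold change 1.65, SE 0.52, adjusted p = 0.127). Stc2, which encodes an inhibitor of that protease, was at 0.784 ± 0.0441 CPM in ΔHep and 0.211 ± 0.0492 CPM in F/F (SD, n = 3 each; log2 fold change 1.89, SE 0.44, adjusted p = 0.0666). Both were named after their values were seen, and both lie below 1 CPM. In F/F replicates 1, 2 and 3, Pappa had 12, 5 and 8 counts and Stc2 6, 5 and 7. Mmp7, a matrix metalloprotease gene of the same list, had 1, 2 and 10, and Cpe, also of that list, had 27, 8 and 27. These genes passed the filter on low counts only with their ΔHep libraries. The 9 of 10 and the median of 1.54 include them and carry no test. Ctsd, the lysosomal cathepsin D, stood at 444 ± 45.4 CPM in ΔHep and 333 ± 11.1 CPM in F/F (SD, n = 3 each; adjusted p = 0.106), Adamts1, a matrix protease, at 15.8 and 11.04 CPM (adjusted p = 0.203), and Plg, the plasminogen made by hepatocytes, at 2380 and 2537 CPM (adjusted p = 0.746). Stellate markers, with a median of 1.07, were higher in the same libraries as these proteases, and their part was not tested.

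Relatives that share the IGFBP domain had 1 of 10 past the threshold, Htra3 again, with 9 positive values and a median of 0.99. Ctgf, the connective tissue growth factor of the CCN family, had 41.3, 31.0 and 83.9 CPM in ΔHep replicates 1, 2 and 3, against 18.3, 19.5 and 30.1 CPM in F/F replicates 1, 2 and 3, which do not overlap (log2 fold change 1.20, SE 0.36, adjusted p = 0.113). Crim1, a membrane protein that tethers bone morphogenetic proteins, stood at 40.0 ± 3.29 CPM in ΔHep and 29.0 ± 1.36 CPM in F/F (SD, n = 3 each; adjusted p = 0.0649), and Cyr61, the other abundant CCN gene, at 6.48 and 6.71 CPM (adjusted p = 0.93).

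Of the ligands, receptors and complex partners, 0 of 6 passed in edgeR; 1 was higher and 3 were lower at an unadjusted p below 0.05. Igf1 was at 574 ± 69.0 CPM in ΔHep and 834 ± 71.3 CPM in F/F (SD, n = 3 each; log2 fold change -0.54, SE 0.14, adjusted p = 0.0789), and Igfals at 75.4 ± 22.8 CPM in ΔHep and 134 ± 32.5 CPM in F/F (log2 fold change -0.83, SE 0.25, adjusted p = 0.121). Neither overlapped between the groups, nor did Ghr, the growth hormone receptor, at 495 and 674 CPM (adjusted p = 0.136). Of all genes, 11.8% were lower without overlap. Insr, the insulin receptor, did overlap, at 202 and 207 CPM (adjusted p = 0.881). Igf1r, the IGF1 receptor, was the 1 higher, at 8.8 CPM in ΔHep and 5.6 CPM in F/F (adjusted p = 0.0987). Igf2 stood at 0.794 and 0.497 CPM (adjusted p = 0.352). Igf1r and Igf2 were higher without overlap, as 15.3% of all genes were, and were named after their values were seen. Adaptors and kinases downstream had 0 of 13 past the threshold (1 at an unadjusted p below 0.05) and a median of 0.07; Pik3r1, the regulatory subunit of PI3 kinase, had the highest level, at 133 and 156 CPM in ΔHep and F/F (adjusted p = 0.471). That list also holds Pdk1, which in mouse is a pyruvate dehydrogenase kinase and no part of the cascade. Of 5 tested genes that bind Igf2 mRNA or are imprinted like Igf2 and Igf2r, or lie beside Igf2r, 0 passed (3 higher and 1 lower at an unadjusted p below 0.05). H19, the RNA transcribed beside Igf2, had 1.87, 3.28 and 7.74 CPM in ΔHep replicates 1, 2 and 3, against 1.31, 1.34 and 1.22 CPM in F/F replicates 1, 2 and 3 (log2 fold change 1.73, SE 0.49, adjusted p = 0.102).

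**Figure D5:**
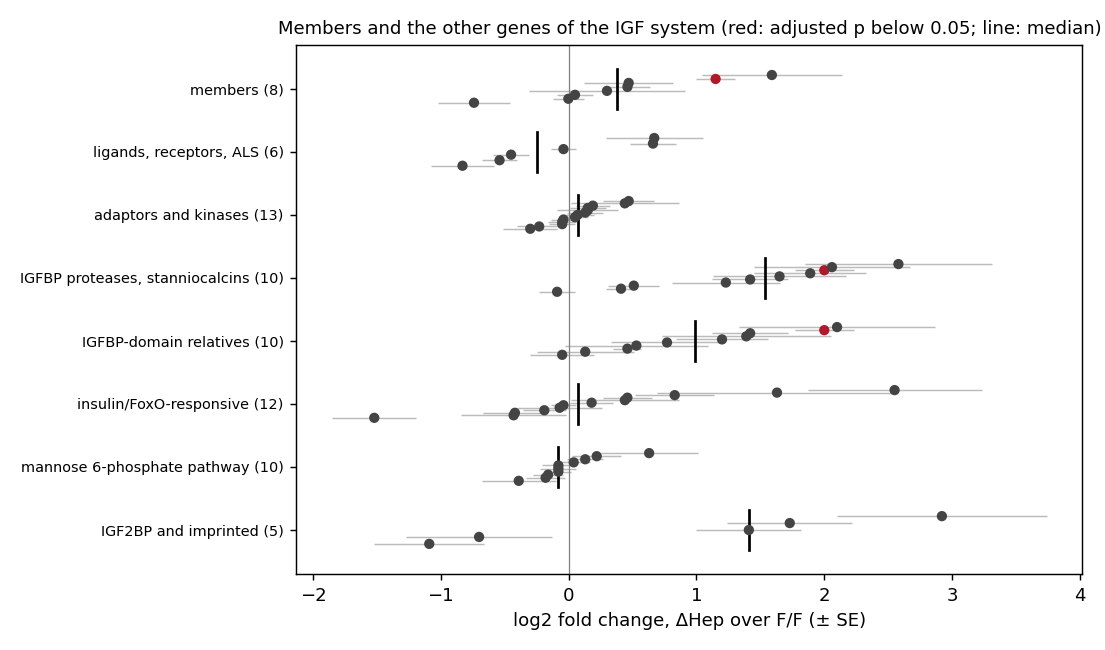
Log2 fold change, ΔHep over F/F, with its SE (horizontal axis) for the 8 members and for the tested genes of 7 lists of the IGF system, with the number of genes in brackets, the median as a vertical line and genes past the threshold in red. Igfbp7 is the red member, and Htra3, which is in 2 lists, is the other red gene; protease and inhibitor genes lie mostly to the right, with a median of 1.54.

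The genes most like each member were taken as those with the smallest root mean square difference from its centred log2 CPM profile over the 6 libraries, among 11581 genes. For Igfbp7 they were Rhoj, a small GTPase gene of endothelial cells (0.046), Anxa2, which encodes annexin A2 (0.091), and Atp8b2 (0.093). For Igfbp6 the nearest was Upk3b, a mesothelial marker, but at 0.399 the match was loose. Igfbp1 had no close match: Nipal1 lay at 0.371 and Cib3 at 0.398. For Igfbp3 they were Sesn3 (0.039), Fuca2 (0.042) and Myo1c (0.047), for Igfbp5 Clstn3 (0.107), and for Igfbp2 Mapkapk3 (0.139). Igfbp4, which hardly varied, lay nearest to Tcf25 (0.016), and Igf2r to Zcchc6 (0.022). A small difference over 6 libraries describes like centred values and no more. For a flat member such as Igfbp4, whose profile has an SD of 0.031, any gene that hardly varies lies near, whatever its order.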

How the data were processed

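Total RNA of primary tumour hepatocytes was sequenced in 6 libraries, 3 ΔHep and 3 F/F, grouped by title. The authors deposited raw read counts per gene symbol, after alignment to mm10 with HISAT2 2.0.4, per the submitters' processing notes; the counting program, annotation, strand setting and gene filter are not given here. Overlapping genes can therefore share reads.

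Counts were tested with edgeR 4.0.16 in R 4.3.3: filterByExpr (minimum count 10, minimum total 15), TMM scaling and the two-sided quasi-likelihood F test, adjusted by the Benjamini-Hochberg method over 14552 genes with a threshold of 0.05. SE is the log2 fold change divided by the square root of F. The common biological coefficient of variation was 21.5%. The script recovered simulated fold changes before use. Log2 CPM for ratios used a prior count of 2. Pairs of libraries in a group differed far beyond sampling noise (chi-square per degree of freedom 19.3 to 116), so all were kept. Exon lengths and coordinates are from GENCODE M21 (GRCm38, the assembly of mm10), which may differ from the annotation behind the counts. Promoters matched 8 of 8 members, in 9 entries.

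Members and gene lists were chosen with earlier results of these data known. Named genes are the members, up to 4 of each list (those past the threshold, then the highest mean CPM), up to 3 of each marker list, and the 3 nearest profiles; exceptions are marked, and some genes that the rule names are not reported here. Alternatives were DESeq2 1.42.0, limma-voom 3.58.1, other scalings, no filter, a replicate block and leaving out each library.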

Additional observations from a re-analysis of the deposited data

How the results depend on the processing

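The count of genes called was 244, and it was 1309 with DESeq2, 88 with limma-voom and 644 on library totals without scaling. Igfbp7 was the member called in all of these fits, and also with size factors of the RLE kind, without a filter and with the replicate block. Leaving out 1 library gave from 1 to 1246 genes and from 0 to 3 members, Igfbp3, Igfbp5 and Igfbp7 without F/F replicate 3. Genes called in the IGF lists were 1 of 62 tested, but 17 with DESeq2. They were 4 on library totals, 4 with the replicate block, and from 0 to 7 with a library left out. Of all genes tested, 1.68% were called in the main fit and 9.0% with DESeq2. Without F/F replicate 3, the fit that gave the 7, it was 8.28%. The median of the hepatocyte members ran from 0.01, without ΔHep replicate 3, to 0.71, without ΔHep replicate 1, and that of the stromal members from 0.23 to 0.59. Pairs of members without overlap were 2, and from 2 to 7 with a library left out. Leaving out a library can only narrow the range of its group, so this count of pairs could not fall. The cause of the other moves was not tested. The sign turned for 3 members: Igfbp4, from -0.03 without F/F replicate 3, was at 0.09 on library totals, and at 0.01, 0.01 and 0.004 without ΔHep replicate 1, F/F replicate 1 and F/F replicate 2; Igf2r, at 0.2 without F/F replicate 3, was at -0.01, -0.02 and -0.01 without ΔHep replicate 2, F/F replicate 1 and F/F replicate 2; Igfbp6 was at -0.14 without F/F replicate 3 and at 0.66 without ΔHep replicate 1. Igfbp1, Igfbp3, Igfbp5 and Igfbp7 kept their direction in all 12 settings. Igfbp2 kept its sign, but at 0.01 (SE 0.27) without ΔHep replicate 3 it had no direction there. Same-numbered libraries showed little joint deviation (correlations 0.11, -0.07 and -0.01), though replicate 1, unlike replicates 2 and 3, matched its own number best. With 3 libraries a group, these correlations cannot settle whether the numbers pair the libraries. The replicate block gave 236 genes. Igfbp6 is limited by its spread between libraries, with an SD of 50.3% of the mean in ΔHep and 61.5% in F/F, and 3 libraries a group limit every comparison.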

Other observations

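Igf1, Igfals and Igfbp3, the partners of the plasma IGF complex, did not pass the test (adjusted p = 0.0789, 0.121 and 0.189 in edgeR), and their ratios within a library are given as values. The summed CPM of the 7 binding proteins was 3.99, 4.62 and 5.88 times that of Igf1 in ΔHep replicates 1, 2 and 3, against 2.74, 3.26 and 2.64 times in F/F replicates 1, 2 and 3. Every ΔHep library lay above every F/F library. Igfbp3 over Igfals, both parts of the ternary complex, was 0.319, 0.310 and 0.594 in ΔHep replicates 1, 2 and 3, against 0.111, 0.119 and 0.272 in F/F replicates 1, 2 and 3, also without overlap. These ratios of CPM are not per length, were chosen after the values were seen and carry no test. Endothelial and stellate cell markers were higher in ΔHep, as given above, and their part in the second ratio was not tested.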
